A study of Rattus norvegicus with 12 samples.

Results

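Polyamines are small, positively charged molecules made from ornithine, which arginase releases from arginine, and they are needed for growth and protein synthesis. Ornithine decarboxylase turns ornithine into putrescine, and spermidine synthase and spermine synthase extend it to spermidine and spermine with aminopropyl groups from S-adenosylmethionine. The supply is held in check by feedback: antizymes bind ornithine decarboxylase and send it to the proteasome, the antizyme inhibitor holds antizyme away, and spermidine/spermine acetyltransferase starts the breakdown and export of the products. The genes described here are the 8 genes of this system with a probe set of their own, namely Odc1, Amd1, Srm and Sms for synthesis, Oaz1, Oaz2 and Azin1 for the control of ornithine decarboxylase, and Sat1 for breakdown. They were taken as every probe set whose annotation gives a single gene symbol that is one of these names, which gave 10 probe sets among 12777 with a single symbol, and 8 genes among 10411. All 10 were bright enough to be tested.

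The 12 arrays came from 2 rat cell lines. WB-F344 is a diploid epithelial line that came from the liver of a male adult rat of strain Fischer-344 ("normal" cells), and GP7TB was derived from that line by chemical transformation and grows into tumors when grafted into rats ("tumor" cells). Each line was kept for 18 hours in a medium with serum that held arginine at 0.168 g/l (arginine-sufficient) or had none added (arginine-deficient). The serum was not dialyzed, and the study states that its cells were not wholly starved of arginine. Below, "without arginine" means that none was added. There were 3 experiments per line and 1 array per culture, so that n = 3 in each of 4 groups. Each group is thus cultures of 1 line, and normal against tumor compares a single pair of lines. A signal here is the brightness of a probe set on a linear scale, with each array scaled to a common mean. Levels are compared for 1 probe set across arrays, and no probe set's level is set against another's to say which RNA is more abundant.

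Some features of the whole series bear on the values below. Hepatocyte markers were low in both lines: 0 of 7 on the array, Alb, Ttr and Hnf4a among them, passed the expression threshold on all 6 arrays of either line. Of the 5 epithelial or biliary markers on the array, the keratins Krt8 and Krt7 did so in both lines, and Krt18, Krt19 and Epcam were below it on all 12 arrays. The threshold was passed on all arrays by 4 of 5 mesenchymal markers, and the summed signal of the 5 was 39602 to 68170 in normal and 15572 to 22973 in tumor cells. All 7 immune, endothelial and erythroid markers on the array, Ptprc and Cd68 among them, were below the threshold on all 12 arrays. The stress genes Trib3 and Asns were higher on the arginine-deficient array in 6 of 6 experiments, Asns by 0.69 to 2.16 on the log2 scale. All 6 tumor arrays were scanned on 1 day and the normal arrays on other days, so that the lines cannot be told apart from their scan days. Chip lots were not shared between the lines either. The run records note trypsin for the tumor arrays of experiments 1 and 3, no trypsin for those of experiment 2, and neither for normal arrays. The part of this handling in the results was not tested. For Gapdh, the signal of the 3′ probe set over that of the 5′ one, a sign of RNA quality, ran from 0.998 to 1.25 in arginine-sufficient and from 1.01 to 1.38 in arginine-deficient normal cells, and from 1.09 to 1.14 and 1.13 to 1.23 in tumor cells, and was higher on the arginine-deficient array in 6 of 6 experiments. The same ratio for Actb was higher there in 2 of 6. The part of RNA quality in the arginine results was not tested.

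The stretches of DNA just before the start sites of 4 of the genes are shown because these genes carry the clearest differences below: Odc1 and Sat1 for arginine, Srm and Sms for cell type. They are the 250 bases before each start site in RefSeq's rat annotation (build GRCr8), which holds such a stretch for 7 of the 8 genes but not for Azin1. Capitals mark the GC box GGGCGG and the E-box CACGTG (a site for Myc and related factors), each searched on both strands. All 4 are on the plus strand, at chr6:46058415-46058664 for Odc1, chrX:44007839-44008088 for Sat1, chr5:164308752-164309001 for Srm and chrX:41331753-41332002 for Sms.
Odc1: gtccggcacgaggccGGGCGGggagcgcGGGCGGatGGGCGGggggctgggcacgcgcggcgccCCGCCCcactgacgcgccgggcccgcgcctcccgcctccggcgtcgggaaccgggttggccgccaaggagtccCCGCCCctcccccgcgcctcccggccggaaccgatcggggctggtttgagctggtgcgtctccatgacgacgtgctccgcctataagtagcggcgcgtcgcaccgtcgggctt
Sat1: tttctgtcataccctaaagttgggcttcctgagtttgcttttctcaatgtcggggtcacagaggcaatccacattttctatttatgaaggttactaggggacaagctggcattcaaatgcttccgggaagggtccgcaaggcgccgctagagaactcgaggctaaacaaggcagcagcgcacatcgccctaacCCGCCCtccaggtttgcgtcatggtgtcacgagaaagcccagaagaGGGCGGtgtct
Srm: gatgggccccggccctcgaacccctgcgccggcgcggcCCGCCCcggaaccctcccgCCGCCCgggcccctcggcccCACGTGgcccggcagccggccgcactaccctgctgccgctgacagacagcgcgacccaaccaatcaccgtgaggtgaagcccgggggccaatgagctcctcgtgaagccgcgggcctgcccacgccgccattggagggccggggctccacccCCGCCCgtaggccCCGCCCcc
Sms: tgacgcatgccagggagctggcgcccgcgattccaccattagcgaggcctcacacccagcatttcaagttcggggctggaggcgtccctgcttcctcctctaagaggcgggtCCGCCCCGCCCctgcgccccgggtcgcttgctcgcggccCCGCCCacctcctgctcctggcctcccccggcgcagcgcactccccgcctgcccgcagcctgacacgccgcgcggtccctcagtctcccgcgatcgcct
For Odc1 and Sms, the longest gene model begins 226 and 310 bases upstream of the start site used here, so that the stretch of Sms lies wholly and that of Odc1 mostly within the annotated gene.

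The GC box was found in all 7 stretches, with 5 matches in Odc1, 4 in Srm, 3 in Sms, of which the matches at -138 and -133 share a base, and 2 in Sat1. It occurs in 30.5% of all 33469 stretches of this length. The E-box was found in Srm, at -173 from the start site, and in Oaz1, at -234, against 5.59% of all stretches. The core of the amino acid response element, searched as TGATGNAA, was in none of the 7 and in 3.40% of all. Such a match, or its absence, describes these letters in this window and no more. The motifs were chosen after the sequences had been seen.

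The first question is how the genes of polyamine synthesis responded when arginine was withdrawn. Odc1 (ornithine decarboxylase, chr6:46058439-46065148 in GRCr8) had signals of 3335, 4322 and 4945 in the arginine-sufficient tumor cells of experiments 1, 2 and 3, and of 8127, 9470 and 9365 in their arginine-deficient partners. All arginine-deficient signals lay above all arginine-sufficient ones, with means of 4200 ± 812 and 8987 ± 747 (SD, n = 3). The rise was 2.16-fold, a log2 difference of 1.11 ± 0.22 (SE, adjusted p = 0.0247). In normal cells the Odc1 signals were 4007, 4001 and 2972 with arginine and 6842, 4814 and 3680 without it. These groups overlapped, since the lowest arginine-deficient signal was below 2 of the arginine-sufficient ones, although each experiment on its own had the higher signal without arginine. The log2 difference in normal cells was 0.45 ± 0.22 (adjusted p = 0.557, or 0.0883 to 0.907 over the alternative fits), with a 95% confidence interval of -0.03 to 0.93. All tests are from limma, with 1 mean per group over all 12 arrays, adjusted over the 9745 probe sets tested. This main fit does not use the pairing of cultures by experiment. The arrays measure RNA from whole cultures, so that fewer cells of a kind and less RNA per cell cannot be told apart.

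Sat1 (spermidine/spermine acetyltransferase, chrX:44008089-44011376) had the other called response. Its signals in tumor cells were 2844, 2965 and 2291 with arginine and 7525, 4927 and 3918 without it, again with no overlap. The experiments differed in size here: the arginine-deficient signal of experiment 1 was far above the other two, and the log2 ratios within experiments were 1.40, 0.73 and 0.77. The rise was 1.96-fold (log2 0.97 ± 0.21, adjusted p = 0.0352). In normal cells Sat1 read 2034, 2243 and 2562 with arginine and 3077, 3380 and 3147 without it. The groups did not overlap there either, but the log2 difference of 0.50 ± 0.21 missed the threshold (adjusted p = 0.477, or 0.0927 to 0.778 over the alternative fits). Synthesis and breakdown were thus both represented among the genes that rose in tumor cells, by the first enzyme of each.

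In tumor cells, 2 of the 10 probe sets passed the test, both with higher signals, where 1.91% of all tested probe sets passed and 0.965% passed with higher signals. In normal cells 0 of 10 passed, where 0.164% of all did (16 probe sets, against 920 at an unadjusted p below 0.05). At an unadjusted p below 0.05, 3 of the 10 differed in normal cells. The median log2 difference of the 10 probe sets was 0.35 in normal and 0.15 in tumor cells, beside medians of -0.04 and -0.05 over all probe sets tested. With low signals raised to the expression threshold, the median of the 10 in normal cells was 0.22. When 1 array was left out, it was 0.21 to 0.45 in normal and 0.06 to 0.18 in tumor cells. Of the 10, 8 lay above 0 in normal and 7 in tumor cells, beside 44.6% and 44.4% of all. When each array was centred on its median, 108 of 160 calls in tumor cells were higher, in place of 94 of 186, and Odc1 and Sat1 stayed among them.

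The calls of Odc1 and Sat1 rest on few arrays. Without the arginine-sufficient tumor array of experiment 1 or 2, or the arginine-deficient one of experiment 2 or 3, the adjusted p of Odc1 was 0.105, 0.0943, 0.109 and 0.0668. Over all probe sets, the calls in tumor cells were 38, 33, 25 and 108 in these fits, in place of 186. The adjusted p of Sat1 was 0.0935, 0.102 and 0.0935 without the arginine-sufficient tumor array of experiment 1, 2 or 3, and 0.0769 and 0.109 without the arginine-deficient one of experiment 1 or 2. Over all alternative fits, these included, the call of Odc1 was lost in 5 and that of Sat1 in 11. Leaving out arrays moved the size less than the call, since the log2 difference over all alternatives was 0.96 to 1.24 for Odc1 and 0.71 to 1.18 for Sat1. Within the chip lot that held 4 of the tumor arrays, it was 1.21 for Odc1 and 0.78 for Sat1. The other lot held the arginine-sufficient array of experiment 2 and the arginine-deficient one of experiment 1, with values of 0.91 and 1.34. In that lot arginine cannot be told apart from experiment. In normal cells 2 scan days held arrays of both media, and the difference of Odc1 within them was 0.31 and 0.52 and that of Sat1 0.30 and 0.67.

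**Figure D1:**
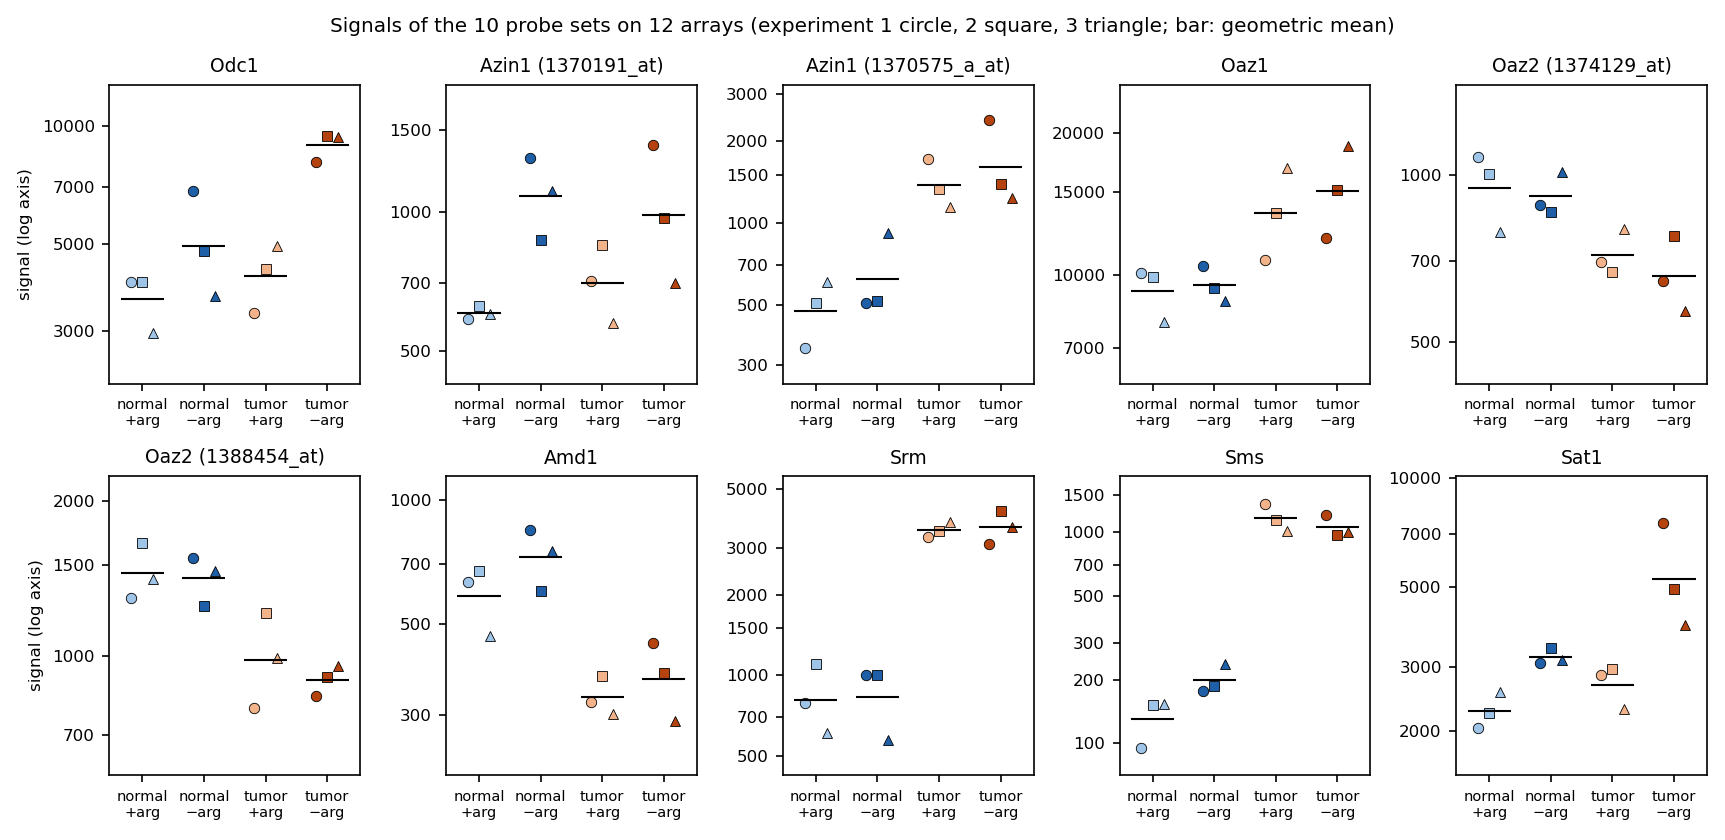
Signal of each of the 10 probe sets (log axis, a range of its own in each panel) on the 12 arrays, by cell type and arginine (+arg, arginine-sufficient; −arg, arginine-deficient). Symbols mark experiments 1 to 3 of each cell type and bars are geometric means of 3 arrays. The arginine-deficient tumor arrays lie highest for Odc1 (8127 to 9470), and Sms and Srm separate tumor from normal cells on all arrays.

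Over both cell types together, Odc1 rose by 0.78 ± 0.16 (adjusted p = 0.0193) and Sat1 by 0.73 ± 0.15 (adjusted p = 0.0207) on the log2 scale, and both were higher without arginine in 6 of 6 experiments. These were 2 of 10 probe sets, where 2.96% of all probe sets passed and 1.6% passed with higher signals (156 of 288 calls, or 219 of 282 with arrays centred on their medians). The call of Odc1 was lost when either tumor array of experiment 2 was left out, the arginine-sufficient or the arginine-deficient one (adjusted p = 0.0516 and 0.0606), and that of Sat1 without the arginine-sufficient normal array of experiment 1 (adjusted p = 0.0596).

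Azin1 (the antizyme inhibitor, chr7:71539711-71566515) resembles ornithine decarboxylase but has no enzyme activity, and takes up antizyme. It is read by a pair of probe sets. On 1370191_at, the signals in normal cells were 586, 624 and 600 with arginine and 1308, 867 and 1109 without it. The arginine-sufficient signals were close together (SD 19.1) and all arginine-deficient ones lay above them. The log2 difference was 0.84 ± 0.24 (adjusted p = 0.276), and with the experiment as a block the adjusted p was 0.0367. In tumor cells the same probe set read 708, 848 and 574 with arginine and 1394, 968 and 702 without it, with overlap between the groups (0.49 ± 0.24, adjusted p = 0.367). Over both cell types its difference was 0.66 ± 0.17, with an adjusted p of 0.0554 that became 0.00636 with the experiment as a block, 0.0324 without the arginine-deficient normal array of experiment 2 and 0.0251 without the arginine-deficient tumor array of experiment 3. The other probe set, 1370575_a_at, was also higher without arginine in 6 of 6 experiments, but by 0.03 to 0.59, and did not pass (0.30 ± 0.21 over both cell types, adjusted p = 0.479).

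The antizymes did not pass the test in either cell type. Oaz1 (antizyme 1, chr7:9534530-9536990) read 10079, 9873 and 7931 with and 10453, 9395 and 8812 without arginine in normal cells, and 10761, 13525 and 16885 with and 11988, 15169 and 18779 without it in tumor cells. Its signal in tumor cells was higher without arginine in all 3 experiments by a narrow 0.15 to 0.17, which is small beside the differences between experiments. The 95% interval of its log2 difference was -0.38 to 0.46 in normal and -0.26 to 0.58 in tumor cells. Within each of the 6 experiments the change of Odc1 was the larger, by 0.40 ± 0.29 in normal and 0.95 ± 0.18 in tumor cells (log2, SD, n = 3), a comparison added after the values were seen and given without a test. Oaz2 (antizyme 2, chr8:75094817-75108634) had log2 differences between -0.13 and -0.03 on its probe sets 1374129_at and 1388454_at in both cell types, with intervals that reached from -0.52 to 0.36.

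Among the remaining enzymes of synthesis, none passed the test for arginine. Amd1 (S-adenosylmethionine decarboxylase, which supplies the aminopropyl groups, chr20:45250289-45324939) had a difference of 0.31 ± 0.22 in normal cells and 0.15 ± 0.22 in tumor cells, with intervals of -0.15 to 0.78 and -0.31 to 0.61. Srm (spermidine synthase, chr5:164309002-164312203) had differences of 0.04 ± 0.25 in both, with intervals of -0.49 to 0.57, so that a rise as large as that of Odc1 in tumor cells lay outside the interval. Sms (spermine synthase, chrX:41331693-41387713) read 96, 152 and 153 with and 177, 188 and 237 without arginine in normal cells (0.61 ± 0.22, adjusted p = 0.388), and 1369, 1148 and 1016 with and 1205, 973 and 1006 without it in tumor cells (-0.15 ± 0.22, adjusted p = 0.819). All 3 signals of the arginine-sufficient normal cells were below the expression threshold of their arrays (146 to 191). When low signals were raised to that threshold the difference in normal cells was 0.13.

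**Figure D2:**
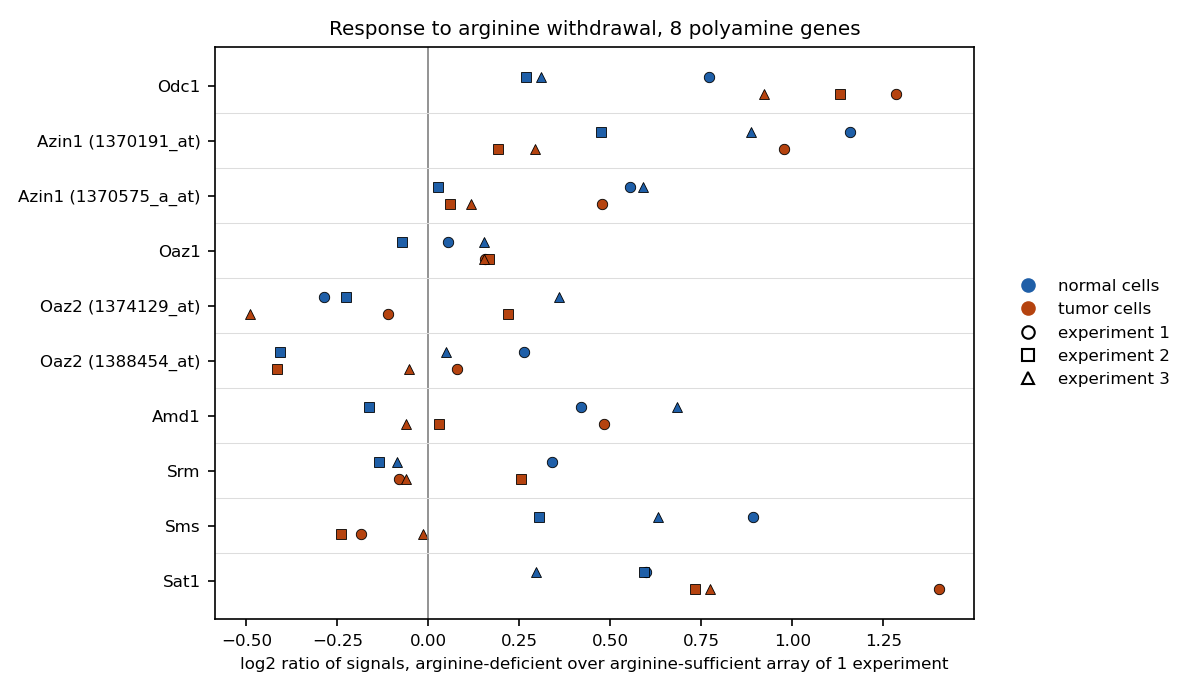
Response within each experiment, as the log2 of the arginine-deficient over the arginine-sufficient signal, for the 10 probe sets, in normal (blue) and tumor (orange) cells. All 6 ratios lie above 0 for Odc1, Sat1 and both probe sets of Azin1, and those of Sms lie above 0 in normal and below 0 in tumor cells.

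Whether the response differed between the cell types was tested as the tumor minus the normal response. None of the 10 probe sets passed, and 0 of all 9745 did (0%, with 550 at an unadjusted p below 0.05). Odc1 had the largest positive difference among the 10, 0.66 ± 0.31 (adjusted p = 0.889, 95% interval -0.01 to 1.34). For Sat1 it was 0.47 ± 0.30 (adjusted p = 0.957, interval -0.17 to 1.12), and for Sms -0.76 ± 0.31 (adjusted p = 0.824). The calls of Odc1 and Sat1 in tumor cells alone therefore do not show that normal cells responded less.

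A filter that the study applied in its analysis counts a gene as changed when 6 or more of the 9 pairwise comparisons of arginine-deficient with arginine-sufficient arrays differ by 2-fold or more, all in 1 direction. By this rule 0 of the 10 probe sets qualified in either cell type, where 1.13% of all tested probe sets did in normal and 2.48% in tumor cells. In tumor cells Odc1 reached 5 of the 9 comparisons and Sat1 reached 4. In normal cells the highest count was 3, for Azin1 on 1370191_at.

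The second question is how the same genes differed between the lines. With arginine present, Sms and Srm stood out as the genes with the largest differences among the 8. Srm read 790, 1102 and 606 in normal and 3302, 3474 and 3761 in tumor cells, a 4.34-fold difference (log2 2.12 ± 0.25, adjusted p = 2.51e-05). Sms went from the 96 to 153 given above to 1016 to 1369 in tumor cells (log2 3.16 ± 0.22, adjusted p = 2.07e-07). Since its signals in normal cells were under the threshold, Sms is best given as at least 6.44-fold higher in tumor cells, the value with low signals raised to the threshold. Without arginine, where its normal signals were all above the threshold, Sms was 5.31-fold higher and Srm again 4.34-fold higher. Both aminopropyl transferases were thus higher in tumor cells, on every array of one line against every array of the other.

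Amd1, which makes the donor these enzymes use, went the other way. Its signals with arginine were 633, 673 and 468 in normal and 322, 372 and 302 in tumor cells, and without arginine 847, 602 and 751 and 450, 380 and 289. No tumor signal reached the lowest normal one in either medium. The tumor cells were lower by a factor of 1.77 with arginine (log2 -0.82 ± 0.22, adjusted p = 0.00963) and 1.98 without it (log2 -0.98 ± 0.22, adjusted p = 0.00282). Both calls stayed under all alternatives tried, with adjusted p-values up to 0.0399 and 0.0159.

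Odc1 and Sat1 did not pass between the lines with arginine (log2 0.19 ± 0.22 and 0.24 ± 0.21, adjusted p = 0.539 and 0.409) and passed without it. There, all 3 tumor signals lay above all normal ones for both genes, by 0.86 ± 0.22 for Odc1 (adjusted p = 0.00759) and 0.72 ± 0.21 for Sat1 (adjusted p = 0.0152). The order of the group means was the same for both, with arginine-sufficient normal cells lowest, then arginine-sufficient tumor cells, arginine-deficient normal cells and arginine-deficient tumor cells. Neighbours in this order overlapped for Odc1, except that the arginine-deficient tumor cells stood clear of the arginine-deficient normal cells, and for Sat1 only the first pair overlapped. The call of Sat1 without arginine was lost without the arginine-deficient tumor array of experiment 1 (adjusted p = 0.0559).

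The antizymes differed between the lines in opposite directions. Oaz1 was higher in tumor cells, by 0.55 ± 0.20 with (adjusted p = 0.0441) and 0.66 ± 0.20 without arginine (adjusted p = 0.0157). Oaz2 was lower, with differences on 1388454_at of -0.56 ± 0.18 with (adjusted p = 0.0294) and -0.66 ± 0.18 without arginine (adjusted p = 0.0112). On 1374129_at the difference was -0.48 ± 0.18 without arginine (adjusted p = 0.0480), and with arginine the value of -0.40 ± 0.18 did not pass (adjusted p = 0.103). These small differences kept their direction under all alternatives, but their calls were often lost. That of Oaz1 with arginine was lost in 11 alternatives (adjusted p = 0.0522 to 0.182), among them leaving out any arginine-sufficient array but that of experiment 1 in tumor cells, or either arginine-deficient array of experiment 2. Its call without arginine was lost without the arginine-deficient array of experiment 3 in normal (adjusted p = 0.0510) or tumor cells (adjusted p = 0.0781). The call of 1374129_at was lost in 16 alternatives (adjusted p = 0.0531 to 0.175), among them leaving out any array but the arginine-sufficient normal ones of experiments 1 and 3 and the arginine-deficient tumor one of experiment 2. That of 1388454_at with arginine was lost without the arginine-sufficient normal array of experiment 2 or 3 (adjusted p = 0.103 and 0.0610) and without the arginine-sufficient tumor array of experiment 1 or 3 (adjusted p = 0.126 and 0.0691).

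For Azin1 the probe sets disagreed between the lines. On 1370575_a_at the signals with arginine were 345, 507 and 608 in normal and 1724, 1334 and 1144 in tumor cells, 2.91-fold higher (log2 1.54 ± 0.30, adjusted p = 0.00158), and without arginine the difference was 1.37 ± 0.30 (adjusted p = 0.00299). When the probe sets were averaged, the difference without arginine was 0.62 (adjusted p = 0.0589). On 1370191_at alone it was 0.22 ± 0.24 and -0.14 ± 0.24 (adjusted p = 0.527 and 0.687). Within each array, the log2 signal of 1370575_a_at minus that of 1370191_at ran from -1.37 to 0.02 in the 6 normal arrays and from 0.52 to 1.28 in the 6 tumor arrays. The means of this quantity differed by 1.42. It was looked at after the values were seen and is given without a test, and it does not say which probe set follows the Azin1 transcript. For Oaz2 the corresponding quantity overlapped between the lines, with a difference of -0.17.

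Counted together, 6 of the 10 probe sets passed with arginine, 4 higher and 2 lower in tumor cells, where 34.6% of all probe sets passed, 16.4% higher and 18.1% lower. Without arginine 9 passed, 6 higher and 3 lower, where 40.7% of all passed, 19.5% higher and 21.2% lower. The probe set that did not pass in either medium was 1370191_at of Azin1. Differences between the lines are common on these arrays, and neither scan day nor chip lot can be told apart from cell type in any of them.

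**Figure D3:**
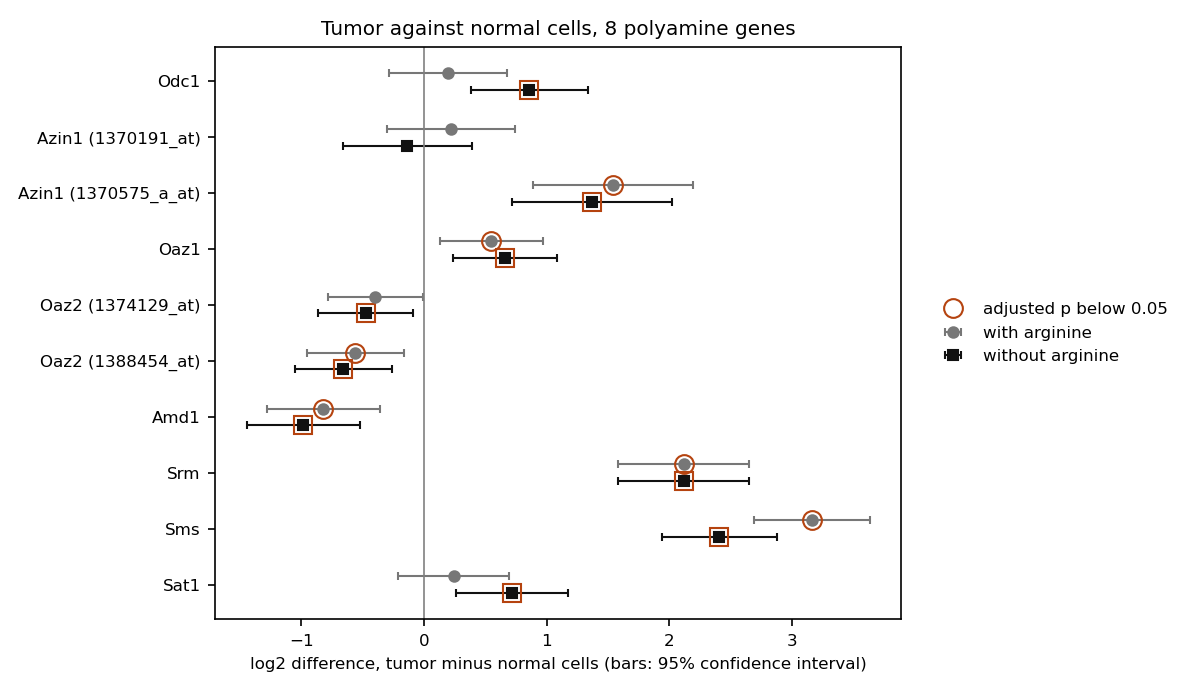
Log2 difference of tumor minus normal cells for the 10 probe sets, with arginine (grey circles) and without it (black squares). Bars are 95% confidence intervals from limma with 3 arrays per group, and outlined symbols passed an adjusted p of 0.05, 6 of 10 with arginine and 9 of 10 without.

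A wider list of 40 genes of polyamine metabolism gave context. Of these 28 were on the array and 22 were bright enough to test, with 26 probe sets. Without arginine, 0 rose and 0 fell in normal cells, 0 rose and 2 fell in tumor cells, and 2 rose and 1 fell over both cell types. Of all probe sets tested, 0.164%, 1.91% and 2.96% passed in these 3 comparisons.

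The genes that fell were Arg1, from the list for ornithine supply, and Cav1, from that for polyamine transport. No other tested gene of these lists was called for arginine. In tumor cells Arg2 (0.58) and Asl (0.73 and 0.84 on its probe sets) had positive log2 differences, and Gpc1 and Atp13a2 had -0.0009 and -0.07. Arg1 (arginase 1, which splits arginine into ornithine and urea) had a mean signal of 372 with and 126 without arginine in tumor cells (log2 -1.57 ± 0.33, adjusted p = 0.0293), and was lower without arginine in 6 of 6 experiments (over both cell types -1.10 ± 0.23, adjusted p = 0.0237). In tumor cells without arginine, 1 of its 3 signals was above the threshold, and with low signals raised to it the difference was -1.15 (adjusted p = 0.0580). Its call in tumor cells was also lost when any 1 of 5 tumor arrays was left out, with adjusted p-values of 0.0638, 0.158 and 0.0544 without the arginine-sufficient arrays of experiments 1, 2 and 3 and 0.0731 and 0.130 without the arginine-deficient ones of experiments 1 and 2. Over both cell types, the arginine-deficient normal array of experiment 1 or 3 and either tumor array of experiment 2 had the same effect (adjusted p = 0.0579 to 0.0755). Oat (ornithine aminotransferase, which links ornithine to glutamate and proline) was lower in 6 of 6 experiments as well, with adjusted p = 0.0531 in tumor cells (log2 -0.76 ± 0.19), and passed there with the experiment as a block (adjusted p = 0.00965). Arg2, the mitochondrial arginase, did not pass (0.66 ± 0.38 over both cell types). Cav1 (caveolin 1, linked to polyamine uptake) was lower in tumor cells on 1370131_at (-0.91 ± 0.18, adjusted p = 0.0263). On its other probe set the value was -0.54 ± 0.17 (adjusted p = 0.131, or 0.0156 with the experiment as a block). The first call was lost without the arginine-sufficient tumor array of experiment 1 or 2 (adjusted p = 0.0844 and 0.128) and without the arginine-deficient one of experiment 2 or 3 (0.109 and 0.0696).

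The genes that rose over both cell types were Myc and Mri1. Myc, a transcription factor for which Odc1 is a textbook target, rose by 1.13 ± 0.21 (adjusted p = 0.0135) and was higher in 6 of 6 experiments. Within normal cells its difference was 1.14 ± 0.30 (adjusted p = 0.213) and within tumor cells 1.11 ± 0.30 (adjusted p = 0.0814), and with the experiment as a block these became 0.0284 and 0.0106. Mri1, an enzyme that returns the methylthio by-product of spermidine and spermine synthesis to methionine, rose by 0.997 ± 0.173 (adjusted p = 0.00859). With a plain linear model the calls of Myc and Mri1 over both cell types were lost (adjusted p = 0.0712 and 0.0505). The hypusine pathway, which modifies the translation factor eIF5A with spermidine, had 0 of 3 genes called for arginine, Dhps, Dohh and Eif5a. With the experiment as a block, 3 more genes passed over both cell types, all of them higher without arginine: Got1 (adjusted p = 0.00709), Asl on 1368916_at (adjusted p = 0.0339) and Enoph1 (adjusted p = 0.0469). Oat also passed, with lower signals (adjusted p = 0.00985). In that fit 1430 of all 9745 probe sets passed over both cell types, in place of 288, so that more passes are found among any genes. Paox, which oxidises acetylated polyamines, had a difference of -0.02 ± 0.18 over both cell types.

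Between the lines, 5 of the 22 genes were higher and 1 lower in tumor cells with arginine, where 34.6% of all probe sets tested passed. Without arginine 9 were higher and 5 lower, where 40.7% of all passed. With arginine, Myc was again among the genes called higher in tumor cells (1.19 ± 0.30, adjusted p = 0.00809). So were Gpc1, a glypican linked to polyamine uptake (1.76 ± 0.27, adjusted p = 0.000253), and Dhps, deoxyhypusine synthase (1.23 ± 0.26, adjusted p = 0.00279). Atp13a2, a lysosomal polyamine exporter, was called too (adjusted p = 0.0107), but its signals in normal cells were all below the threshold, which makes it at least 1.43-fold higher. Mycn had mean signals of 1240 in normal and 11.9 in tumor cells, the latter below the threshold on every array, and was at least 7.41-fold lower in tumor cells.

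**Figure D4:**
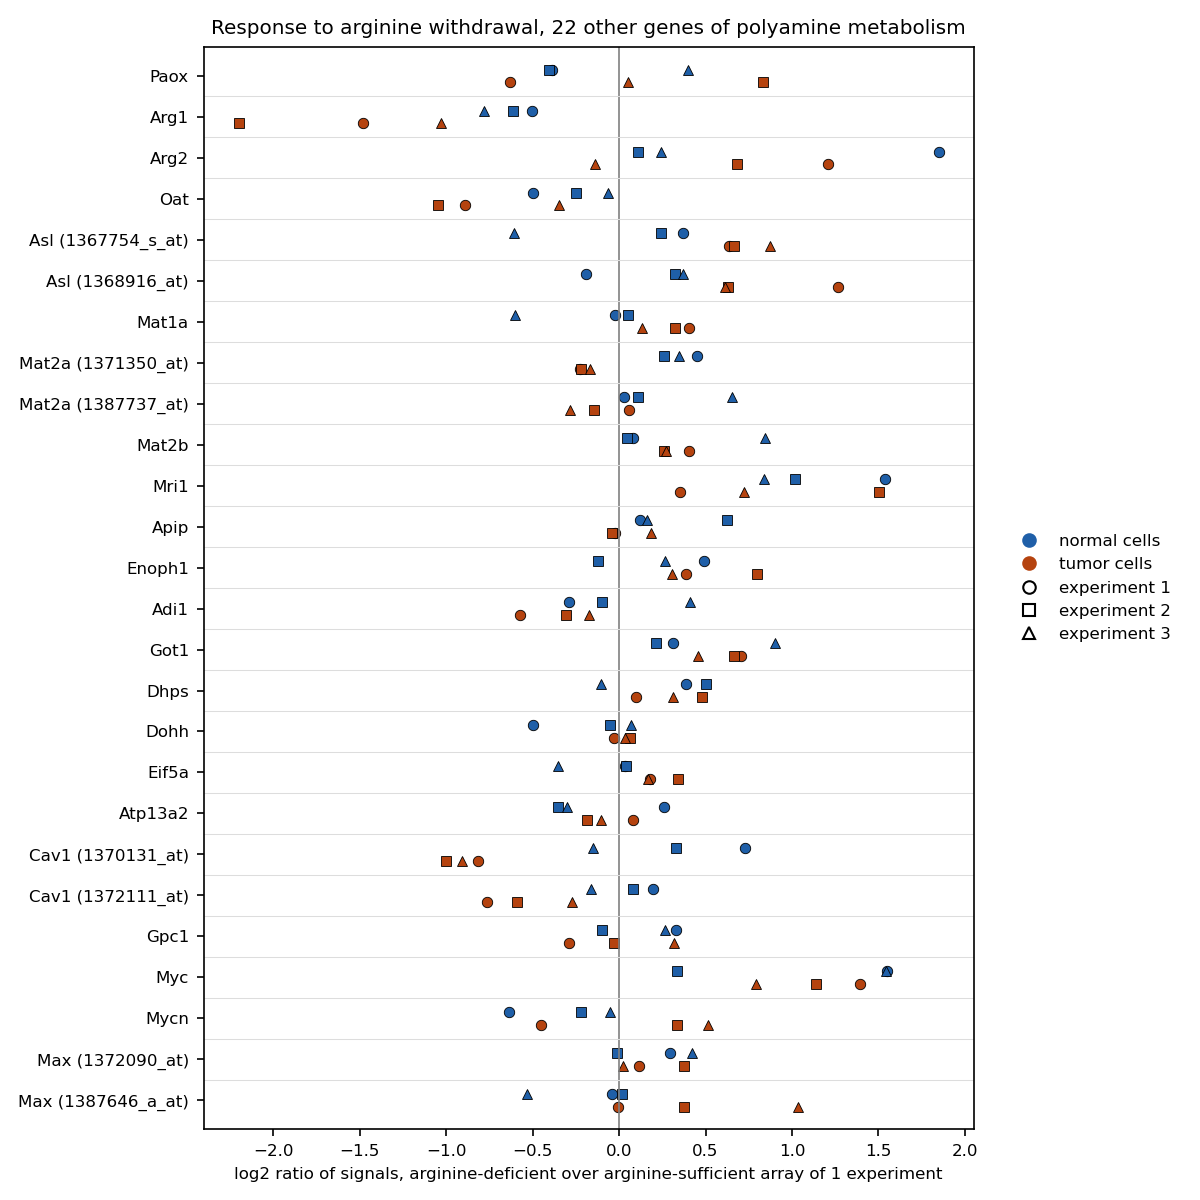
Response within each experiment (log2, arginine-deficient over arginine-sufficient signal) for the 26 tested probe sets of 22 other genes of polyamine metabolism, in normal (blue) and tumor (orange) cells. All 6 ratios lie below 0 for Arg1 and Oat and above 0 for Myc, Mri1, Got1 and Mat2b.

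The genes whose signals followed Odc1 and Sat1 most closely were looked up among the 8327 tested probe sets with a single symbol. Over the 12 arrays, the highest Pearson correlations with Odc1 were those of Pmm2 and C7h19orf25 (both 0.936) and Chchd6 (0.928), and with Sat1 those of Atg7 (0.945), Mdfic (0.938) and Gas5 (0.918). With the mean of each cell type subtracted, they were Cebpb (0.942), Eif4ebp1 (0.937) and Cox4i1 (0.933) for Odc1, and Gas5 (0.955), Atg12 (0.941) and Eprs1 (0.940) for Sat1. Odc1 and Sat1 correlated with each other at 0.720 and 0.639. The 12 points fall into 4 groups and share scan days, so that these values only describe the arrays.

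Several probe sets may also read near-identical copies. RefSeq lists 10 pseudogenes named after Odc1, 3 after Amd1, 2 after Sms and 2 after Oaz1, and the signals of these 4 genes cannot be told apart from RNA of such copies.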

How the data were processed

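RNA from 12 cultures was measured, 1 Affymetrix RAE230A array per culture and 3 cultures in each of 4 groups. The deposited values are intensities on a linear scale, which the authors computed for each probe set with Microarray Suite 5.0, with all arrays scaled to the same mean. Precision is limited by the number of arrays, and p-values measure the spread between these cultures. Chip lots, scan days and notes on trypsin were read from the run record of each array.

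Tests used log2 signals, with a floor of 1. The filter kept probe sets that ranked in the top 54% of signals (above 146 to 191, depending on the array) on 3 or more of the 12 arrays, and 57 controls were left out. The array's annotation gave the symbols, and in it 311 probe sets carry several symbols and 2778 none. RefSeq gene identifiers gave the same symbol for all 8 genes. The array's own genome build is not given in the sources used here, and coordinates are those of RefSeq.

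Tests were made in R 4.3.3 by limma 3.58.1. The model had a mean for each group, moderated variances with an intensity trend and Benjamini-Hochberg adjustment over all 9745 probe sets tested. It was tested on simulated data with independent noise on each array. That simulation held no effect of experiment, chip lot or scan day, and so does not bear on them. Arginine-deficient and arginine-sufficient cultures were paired by experiment from the study's codes and the sample numbers. With group means removed, the correlation of partners was 0.38 to 0.43 in normal cells, and for experiments 1, 2 and 3 of tumor cells it was 0.56, 0.04 and 0.42. All probe sets of the 8 genes are named. Of each context list up to 4 genes that passed are named, and Oat, Arg2, Asl, Enoph1, Asns, Trib3, Paox, Mat2a, Mat2b, Dohh and Eif5a were named after their values were seen or as checks. The members and lists were chosen with earlier results of these data known. Alternatives covered the filter, raising low signals to the 46th percentile, adding 16 to every signal, quantile normalization, median centring, a plain linear model, no intensity trend, 1 cell type alone, blocks for chip lot, scan day and experiment, averaging the probe sets of a gene, the study's 2-fold filter over 9 comparisons, and leaving out each array. The change calls of single arrays, which the study's methods also use, were not analysed here. Random blocks for scan day and experiment, between the lines, were chosen after seeing the data. Python 3.11.15 with matplotlib 3.10.9 drew the figures.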

Additional observations from a re-analysis of the deposited data

Results flagged for a closer look

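Sms, spermine synthase, moved in opposite directions in the 2 cell types: without arginine its signal was higher in all 3 experiments of normal cells (log2 ratios of 0.89, 0.30 and 0.63) and lower in all 3 of tumor cells (-0.18, -0.24 and -0.02). The difference between the responses was -0.76 ± 0.31 (SE, limma, adjusted p = 0.824 over all probe sets), and so was not past the threshold. The normal signals lay near the expression threshold, and with low signals raised to it the difference was -0.28 (adjusted p = 0.962).

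Mat2a, which makes S-adenosylmethionine, did the same on 1371350_at, with log2 ratios of 0.45, 0.26 and 0.35 in normal and -0.22, -0.22 and -0.17 in tumor cells, a difference of -0.56 ± 0.35 (limma, adjusted p = 0.957). Its other probe set did not keep to 1 direction in tumor cells. These were 2 of 40 probe sets looked at in this way. The share of all tested probe sets with such opposite directions is not given here, so that the count is no result about these genes.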

How the results depend on the processing

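Of the 1448 values that the alternatives gave for the 10 probe sets, 1382 kept their side of the threshold, 58 were no longer past it and 8 newly were. In 44 values the sign changed, all of them below the threshold both ways, and no called value reversed. In tumor cells the number of probe sets called for arginine was 1, in place of 2, with no filter on low signals, quantile normalization, no intensity trend, scan day as a block or 1 cell type alone. In each of these Sat1 lost its call and Odc1 kept it. The number was 0 with a plain linear model or the study's 2-fold filter over 9 comparisons. Leaving out 1 array gave 0 to 2. Over both cell types it was 0 with the plain linear model and 1 to 3 without 1 array. In normal cells the replicate block gave 1, in place of 0, and 0 remained without any 1 array. Among the 8 genes the block changed for arginine the calls of Azin1 on 1370191_at alone. Of the other genes, besides those given above, Asns then passed within normal cells and Asl and Got1 within tumor cells. Mri1 passed within normal (adjusted p = 0.0186) and tumor cells (adjusted p = 0.0206). The random block for experiment, used between the lines, lost the call of Oaz2 on 1374129_at without arginine (adjusted p = 0.0769). Between the lines, 4 to 6 passed with and 7 to 9 without arginine when 1 array was left out. Over all probe sets, calls for arginine were 16 in normal cells, 186 in tumor cells and 288 over both, against 0, 29 and 137 with the plain linear model and 235, 1069 and 1430 with the block, and 3 to 49, 25 to 200 and 114 to 505 without 1 array. With no filter they were 9, 115 and 189. In normal cells they were also 9 with no intensity trend, 39 with scan day as a block, 0 with 1 cell type alone and 7 with a gene's probe sets averaged, and for the difference of the responses 0 to 5. Median centring raised the median of all probe sets by 0.12 and 0.11 between the lines, and Oaz2 was then not called. The cause of these changes was not tested.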
